A study of Mus musculus with 28 samples.

Results

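A stretch of 8 rows of the count tables, among 28661 features in all, held between 0.0736% and 60.4% of the assigned reads of a library, and that share was highest in cultured mouse neurons whose RNA was captured by TIVA. The 8 rows are those whose UCSC known-gene identifier falls, in alphabetical order, between uc009vev and uc009vfc: uc009vev.1, uc009vew.1, uc009vex.1, uc009vey.1, uc009vez.1, uc009vfa.1, uc009vfb.1 and uc009vfc.1. None of them joins several identifiers. The stretch of names was drawn around uc009vev.1 and uc009vex.1, which were already known to be very abundant in cultured TIVA libraries and low in hippocampal tissue TIVA neurons, so the levels of these 2 rows are a description and carry no support of their own. The TIVA minus pipette contrast of cultured hippocampal neurons was also among those that chose them. The other 6 rows entered by identifier alone, with earlier results of these data known. The row just before the stretch, uc009veu.1, had reads in 14 of 28 libraries and reached at most 1.54 CPM (read counts per 1 M assigned reads). The row just after it, uc009vfe.1, had 4 reads in a single library and 0 in the others, where a count of 0 allows up to 0.0508 to 0.567 CPM depending on depth (3 reads, counting error only).

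A known-gene identifier names a transcript model in the UCSC annotation of the mouse genome, and a row of the counts can join several identifiers. Neither the files nor the tables given with them pair these identifiers with symbols: 0 of 55419 single identifiers matched. No gene name, role, position, length or sequence is therefore given for the 8 rows, the order of the names is not taken as an order along a chromosome, and the labelled cell types could not be set against marker genes. The files also do not say whether these rows belong to nuclear chromosomes or to the mitochondrial genome. Reads per row are not divided by length, so a row with more reads than another is not shown to have more transcripts, while a single row can be followed from library to library. Because CPM divides a fixed total among all features, a few features that take many reads lower the CPM of all others.

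The libraries came from C57BL/6 mice, in 8 groups named by region, setting and means of collection. Cultured neurons, grown on coverslips for 7 to 9 days, gave 4 cortical libraries by pipette, 4 cortical by TIVA, 3 hippocampal by pipette and 4 hippocampal by TIVA. From mice aged 8 to 10 days, acute coronal slices gave 5 hippocampal neurons by TIVA, 3 hippocampal neurons by pipette, 2 cortical neurons by TIVA and 3 pieces of bulk hippocampus. TIVA, transcriptome in vivo analysis, loads cells with a caged tag that a laser opens in a chosen cell, after which the tag binds polyadenylated RNA for capture. The tag was used at 10 µM for 15 min with 30% laser power in culture and at 30 µM for 90 min with 80% laser power in tissue, so dose, loading time and laser power change together with the setting. For hippocampal tissue pipette neurons the extraction protocol speaks of TIVA capture, and for cortical tissue neurons it names the hippocampal CA1 field. Both groups are taken here by their source name. All RNA was polyadenylated RNA amplified in 3 rounds of in vitro transcription. Assigned reads per library ranged from 5295130 to 59048065. Each of 25 libraries is 1 neuron and no animal or culture is named, so each group counts as 1 sample, no test was run, and differences are set beside the spread over libraries. A batch cannot be told apart from a group, since no sequencing date is given.

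The summed share of the 8 rows was highest in cultured neurons captured by TIVA. In hippocampal culture the 4 TIVA libraries held 36.5%, 60.4%, 56.4% and 14.8% of their assigned reads in these rows, and in cortical culture they held 33.6%, 29.7%, 13.4% and 54.5%. Bulk hippocampus held 23.3%, 7.48% and 4.85%, with the first library well above the others. The cortical tissue neurons held 5.79% and 4.845%, the first inside the range of bulk tissue and the second just under its lowest library, at 4.854%. Every cultured TIVA library was above every other single neuron, whether by pipette or by TIVA from tissue. The first bulk library, at 23.3%, lay above the lowest library of both cultured TIVA groups.

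The other 4 groups had lower medians. Hippocampal tissue pipette neurons held 2.58%, 4.29% and 2.19%, and cultured cortical pipette neurons 5.02%, 0.827%, 2.65% and 1.15%, so that the highest of these lay above the lowest bulk library. In hippocampal tissue TIVA neurons the share was 0.409%, 0.280%, 0.755%, 1.56% and 1.11%. Cultured hippocampal pipette neurons held least, with 0.249%, 0.478% and 0.0736%, and their highest library overlapped the tissue TIVA neurons. Summed over the libraries of a group, the share was 47.6% in cultured hippocampal TIVA neurons (exact 95% Poisson interval 47.5% to 47.6%) and 0.190% in cultured hippocampal pipette neurons (0.189% to 0.191%). These intervals cover counting error only and are far narrower than the spread between cells.

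**Figure D1:**
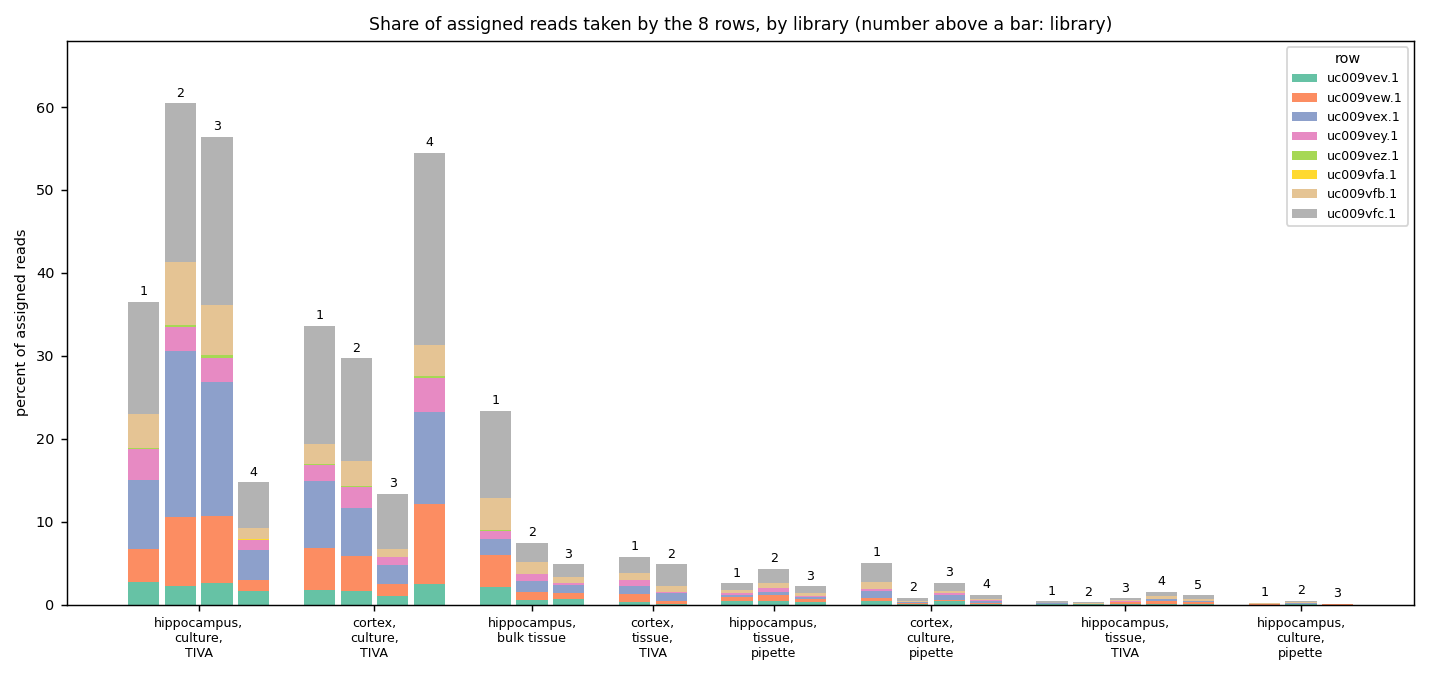
Stacked bars give the percent of assigned reads in each of the 8 rows (colours) for every library, grouped by source name, with the library number above each bar. The 8 cultured TIVA libraries reach 13.4% to 60.4%, against 0.0736% to 0.478% in the 3 cultured hippocampal pipette libraries.

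The row with the largest share of the stretch's reads was uc009vfc.1. It entered by identifier, as the last name of the stretch, with earlier results of these data known. It held 13.6%, 19.1%, 20.2% and 5.54% of all assigned reads in the hippocampal cultured TIVA libraries and 14.3%, 12.3%, 6.62% and 23.2% in the cortical ones. In bulk tissue it was at 104649, 23863 and 15046 CPM, and in the cortical tissue neurons at 20198 and 26383 CPM. It had the most reads of any feature in 11 libraries: all cultured cortical TIVA, all bulk, 3 of 4 cultured hippocampal TIVA and 1 cultured cortical pipette library. In the remaining hippocampal TIVA library uc009vex.1 came first. Among the 8 rows uc009vfc.1 had the most reads in 27 of 28 libraries.

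The same row had lower group means in the other 4 groups, although single libraries reached the level of bulk tissue and of the cortical tissue neurons. Hippocampal tissue pipette neurons had 8287, 17208 and 7993 CPM of uc009vfc.1, and cultured cortical pipette neurons 23156, 3723, 9510 and 4599 CPM, so these groups overlapped. Hippocampal tissue TIVA neurons had 1640, 897, 2504, 5642 and 4200 CPM. Cultured hippocampal pipette neurons had 961, 1854 and 313 CPM, and overlapped the tissue TIVA neurons. From the highest group mean, 146306 CPM (SD 67153, n = 4), to the lowest, 1042 CPM (SD 774, n = 3), was a ratio of 140.4.

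Next by mean reads over all libraries came uc009vex.1, whose levels were part of the choice. In cultured hippocampal neurons it was at 83324, 199719, 161360 and 35562 CPM by TIVA and at 139, 319 and 108 CPM by pipette. The ratio of these group means, 636, was the widest between any 2 group means for the 8 rows. Its order of group means differed from that of uc009vfc.1, since cultured cortical pipette neurons (mean 4241 CPM, SD 3132, n = 4) came above hippocampal tissue pipette neurons (mean 2554 CPM, SD 747, n = 3), with overlapping ranges.

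The row uc009vew.1 entered by identifier, its name lying between uc009vev.1 and uc009vex.1. It was at 39282, 83498, 81238 and 13928 CPM in cultured hippocampal TIVA neurons, and at 50647, 41882, 14306 and 96324 CPM in cortical ones. In hippocampal tissue TIVA neurons it was at 796, 643, 2260, 4517 and 3036 CPM. There it was the only row besides uc009vfc.1 to rank among the 10 features with most reads, at place 9 in the fourth neuron. The tissue pipette neurons had 5704, 6901 and 4275 CPM, and the lowest of them lay within the TIVA range.

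The row uc009vfb.1 followed the same order of groups as uc009vfc.1. Its means were 47785 CPM (SD 26833, n = 4) in hippocampal and 25467 CPM (SD 11739, n = 4) in cortical cultured TIVA neurons. Bulk tissue was at 38861, 13700 and 7338 CPM. Of all 8 rows it was the only one whose hippocampal tissue TIVA and cultured hippocampal pipette neurons did not overlap, with 675 to 3053 CPM in hippocampal tissue TIVA neurons and 107 to 617 CPM in cultured hippocampal pipette neurons.

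For uc009vev.1, part of the choice, the group of highest mean had 27558, 22575, 25985 and 16279 CPM, the cultured hippocampal TIVA neurons, and overlapped both cultured cortical TIVA neurons and bulk tissue. The hippocampal tissue pipette neurons, at 3888, 4741 and 2808 CPM, all lay above the 5 tissue TIVA neurons, at 162, 137, 375, 354 and 186 CPM. The 2 cortical tissue neurons differed from each other, at 3324 and 396 CPM, although their levels of uc009vex.1 were nearly equal, at 9260 and 9109 CPM. The row uc009vey.1 differed between them as well, at 7800 and 1691 CPM.

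Over the 8 groups uc009vey.1 ran from a mean of 26697 CPM (SD 10415, n = 4) in cultured hippocampal TIVA neurons to 380 CPM (SD 293, n = 3) in cultured hippocampal pipette neurons. Both cultured TIVA groups were above bulk tissue, with 9270 CPM in the lowest cortical library against 8872 CPM in the highest bulk library.

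The remaining rows were much less abundant. For uc009vez.1 group means ran from 1808 CPM (SD 1253, n = 4) in cultured hippocampal TIVA neurons to 24.3 CPM (SD 11.7, n = 5) in hippocampal tissue TIVA neurons, where the lowest group was thus another than for the other 7 rows. It was at 26.1 CPM (SD 21.3, n = 3) in cultured hippocampal pipette neurons, well within that spread. The row uc009vfa.1 had the fewest reads of the 8 in every library. Its group means ran from 161 CPM (SD 78.4, n = 4) to 2.66 CPM (SD 2.23, n = 3), and its lowest count, 20 reads or 2.02 CPM, has an exact 95% Poisson interval of 1.23 to 3.12 CPM.

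**Figure D2:**
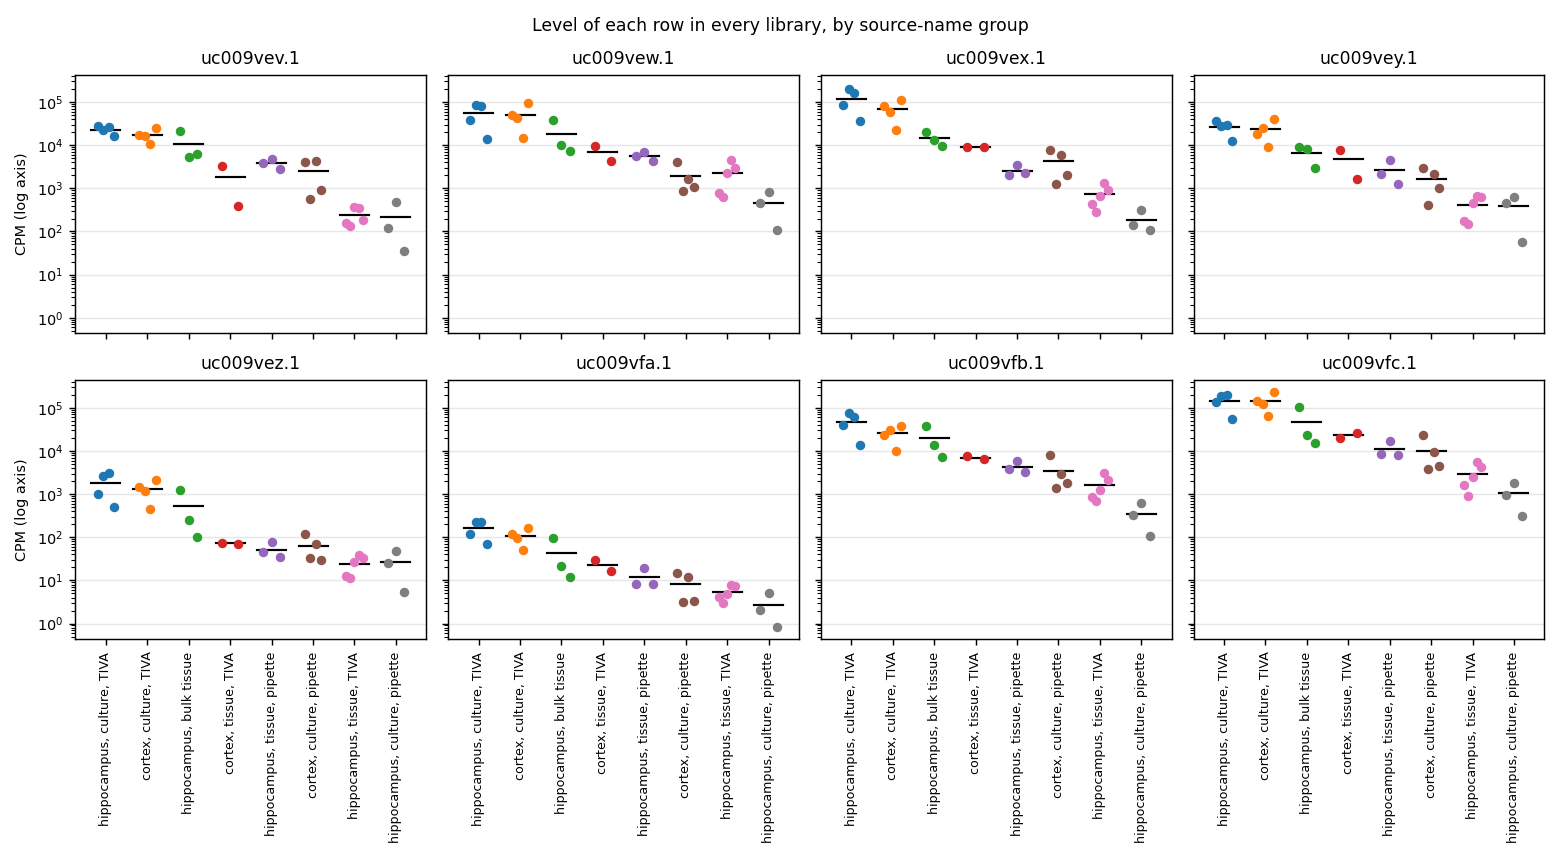
Each panel plots 1 row, with CPM on a log axis against the 8 source-name groups. Points are libraries and bars are group means. The first 3 groups from the left, both cultured TIVA groups and bulk tissue, come in the same order in all 8 panels, while later groups change places, as where uc009vev.1 is higher in hippocampal tissue pipette neurons than in cortical tissue neurons by mean.

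All 8 rows shared the top of the order. By group mean, cultured hippocampal TIVA neurons came first, then cultured cortical TIVA neurons and then bulk hippocampus for each of them, but the first 2 overlapped for every row. Cortical TIVA neurons stood apart from bulk tissue only for uc009vex.1 and uc009vey.1. Further down, most neighbours overlapped: of the 7 steps in the order, 4 were gaps for uc009vex.1, 2 for uc009vev.1 and uc009vfb.1, 1 for uc009vew.1, uc009vey.1, uc009vez.1 and uc009vfc.1, and 0 for uc009vfa.1. The highest and lowest group mean CPM of a row, each taken as log2(mean CPM + 10), differed by 3.75 to 9.24. The upper end is uc009vex.1, whose levels were part of the choice, and its 4 gaps share this limit. Rows outside the choice ended at 7.12 (uc009vfc.1). The median of this difference was 2.15 over the 10694 features that averaged at least 5 CPM. Within groups the SD of log2(CPM + 10) over libraries was 0.60 to 1.13 for the 8 rows, against a median of 0.81 over those features.

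Means of collection was compared first, to see how TIVA and pipette differed between neurons of the same region and setting, each library being another cell. A row was called when its mean log2(CPM + 10) differed by 2 or more (4-fold at high levels) and the libraries of the 2 groups did not overlap. Shares over all tested features are given for these calls only. No such share was counted for rows that did not overlap whatever their difference. All 8 rows passed the filter of a mean of 5 CPM or more in each of the 11 comparisons. In cultured hippocampal neurons all 8 were called higher by TIVA, where 0.491% of 10589 tested features were and 2.93% were lower. The differences ran from 3.63 for uc009vfa.1 to 9.11 for uc009vex.1, with a median of 7.01, against a median of −0.46 over all tested features. That contrast was among those that chose uc009vev.1 and uc009vex.1.

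Cultured cortical neurons gave the same direction with smaller differences. All 8 rows were called higher by TIVA, where 0.827% of 11119 tested features were and 1.43% were lower. The differences ran from 2.66 for uc009vfa.1 to 4.70 for uc009vew.1, with a median of 4.00, against −0.17 over all tested features. High levels in cultured TIVA libraries were part of the choice of uc009vev.1 and uc009vex.1, so their calls carry no support of their own. The 6 rows outside the choice span the same range of differences. The row uc009vew.1 averaged 50790 CPM by TIVA (SD 34077, n = 4) and 1934 CPM by pipette (SD 1536, n = 4).

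In hippocampal tissue the order was opposite. All 8 differences were below 0, and 3 rows were called lower by TIVA, uc009vev.1 by −4.00, uc009vey.1 by −2.69 and uc009vfc.1 by −2.09, where 0.551% of 9431 tested features were and 1.74% were higher. Another 3 rows, uc009vex.1, uc009vfa.1 and uc009vfb.1, were lower in every TIVA neuron but by less than 2, a count with no share over all features beside it. For uc009vfa.1 the nearest values were close, at 7.92 CPM by TIVA and 8.04 CPM by pipette. The groups overlapped for uc009vew.1, at −1.66, and for uc009vez.1, at −0.87. The median over the 8 rows was −1.81, against 0.27 over all tested features. Low levels in hippocampal tissue TIVA neurons were part of the choice of uc009vev.1 and uc009vex.1. The call of uc009vev.1 therefore carries no support of its own. When a library was left out 2 to 5 rows were called, with 5 without the fourth TIVA neuron. The means of collection of these pipette neurons rests on the source name.

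Tissue and culture were compared next, within a means of collection. By TIVA, all 8 rows were called lower in hippocampal tissue than in hippocampal culture, where 0.764% of 9949 tested features were and 1.56% were higher, in a contrast that was itself part of the choice. The 6 rows outside the choice differed by −3.34 (uc009vfa.1) to −6.10 (uc009vey.1). In cortex 6 of the 8 were called lower in tissue, where 13.2% of 9159 tested features were and 2.41% were higher, and uc009vfa.1 (−1.78) and uc009vfb.1 (−1.71) were lower in both tissue neurons by less than the limit. The median was −2.57 over the 8 rows and −0.96 over all tested features. The 6 called rows include uc009vev.1 and uc009vex.1, whose high levels in cultured TIVA libraries were part of the choice. For uc009vev.1 the cortical difference of −3.84 was −5.36 without the first and −2.32 without the second tissue neuron.

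By pipette the direction was reversed. In all, 6 rows were called higher in hippocampal tissue than in hippocampal culture, where 1.13% of 9967 tested features were and 5.98% were lower. They differed by 3.10 for uc009vey.1 to 4.72 for uc009vev.1. The cultured hippocampal pipette neurons entered a contrast that chose uc009vev.1 and uc009vex.1, so the calls of these 2 rows carry no support of their own. The called rows outside the choice differed by 3.10 (uc009vey.1) to 3.95 (uc009vew.1). The row uc009vfa.1 was higher in every tissue neuron by 0.76, and uc009vez.1, at 0.92, overlapped. Over the 8 rows the median was 3.72, and over all tested features it was −0.60. These comparisons share groups with those above: the cultured TIVA, cultured pipette and tissue groups each enter more than 1 of them.

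Single neurons were then set against bulk hippocampus, which holds all cell types of the region. In bulk tissue, fewer cells of a type and less RNA per cell cannot be told apart. By TIVA, 7 rows were called lower, where 2.1% of 10413 tested features were and 0.24% were higher. All 8 rows were lower in every tissue neuron than in every bulk library, a count with no share over all features beside it. The differences ran from −1.45 for uc009vfa.1, the row not called, to −5.25 for uc009vev.1. Low levels in these neurons were part of the choice of uc009vev.1 and uc009vex.1, so their calls carry no support of their own. The 6 rows outside the choice differed by −1.45 to −4.06 (uc009vey.1). By pipette, 2 rows were called lower, uc009vex.1 by −2.46 and uc009vez.1 by −2.47, where 4.82% of 9967 tested features were and 0.652% were higher. Of the 8 rows, 5 did not overlap bulk tissue, again with no share over all features beside it. Without the first bulk library, the one with 23.3% of its reads in the stretch, 1 row was called against the pipette neurons, and the difference of the summed rows was −1.06 in place of −1.71. Without bulk library 3, or without pipette neuron 2, 4 rows were called. Both comparisons use the same 3 bulk libraries.

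Region was compared last. Between cultured TIVA neurons of cortex and hippocampus, 0 of the 8 rows were called, where 0.197% of 10163 tested features were called higher and 0.0787% lower in cortex. All 8 rows overlapped, with differences of −0.81 to −0.03. Between cultured pipette neurons 5 rows were called higher in cortex, where 0.398% of 11318 tested features were and 1.5% were lower: uc009vex.1 by 4.20, uc009vev.1 by 3.63, uc009vfb.1 by 3.24, uc009vfc.1 by 3.23 and uc009vew.1 by 2.15. The groups overlapped for uc009vey.1, uc009vez.1 and uc009vfa.1. Since the choice of uc009vev.1 and uc009vex.1 drew on these hippocampal pipette neurons, the calls of these 2 rows carry no support of their own. Between tissue TIVA neurons 5 rows were called higher in cortex, where 1.25% of 8951 tested features were and 10.7% were lower, and 2 more, uc009vez.1 and uc009vfa.1, were higher in both cortical neurons by less than 2. The row uc009vew.1 overlapped there, at 9602 and 4418 CPM in cortex. Among the called rows were uc009vev.1 and uc009vex.1, whose low levels in hippocampal tissue TIVA neurons were part of the choice. For uc009vev.1 the difference of 2.32 was 0.80 without the first cortical neuron and 3.84 without the second.

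**Figure D3:**
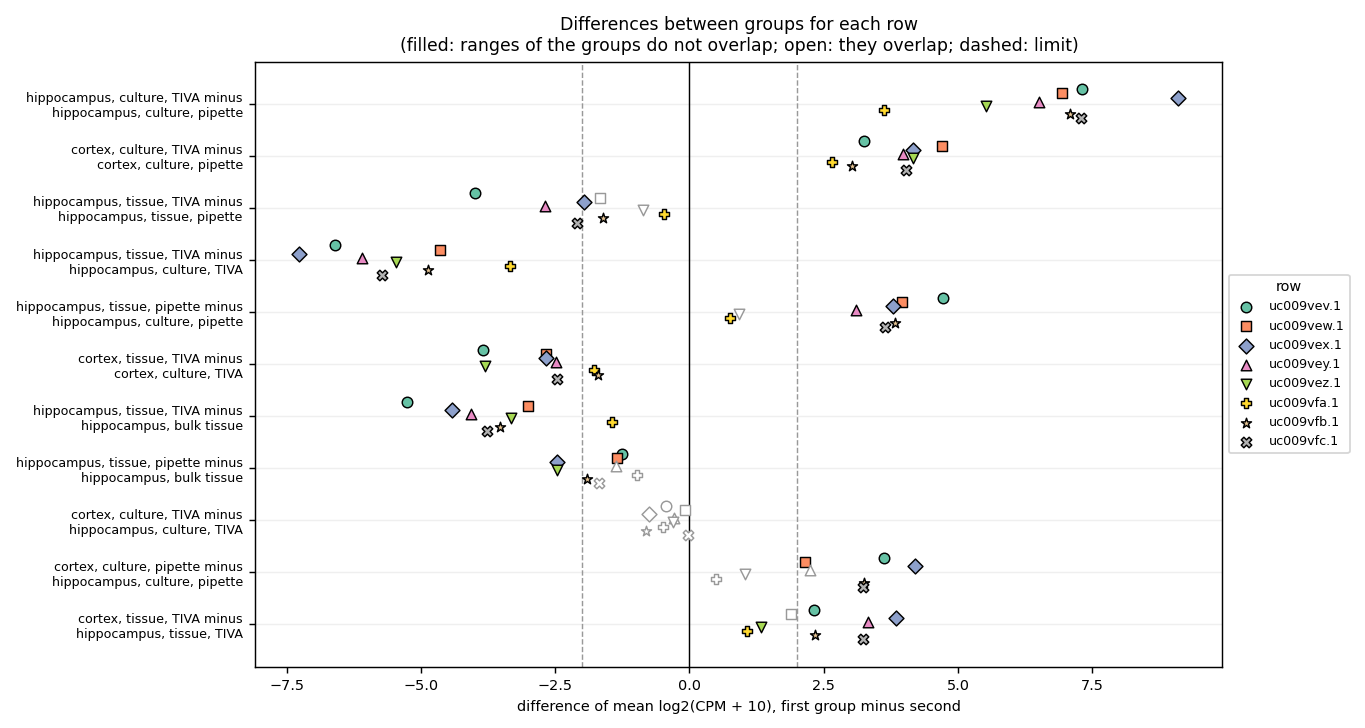
Each line is 1 of the 11 comparisons and each symbol 1 of the 8 rows, placed at the difference of mean log2(CPM + 10), first group minus second. Filled symbols mark groups that do not overlap, and dashed lines the limit of 2. The rows lie far to the right for TIVA minus pipette in both cultures, to the left for the same contrast in hippocampal tissue, and near 0 for cortex minus hippocampus in cultured TIVA neurons.

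The rows did not keep fixed proportions to each other. A row's share of the reads of the whole stretch does not depend on the other features, and its length cancels when it is followed across libraries. The share of uc009vfc.1 moved least in relative terms among the abundant rows, from 31.0% to 54.4% over 28 libraries. That of uc009vex.1 differed between hippocampal TIVA neurons of culture and tissue: in cultured hippocampal TIVA libraries it ranged from 22.8% to 33.0%, and in hippocampal tissue TIVA neurons from 8.13% to 10.8%. The share of uc009vew.1 went the other way, from 9.43% to 14.4% in the former and from 19.5% to 29.9% in the latter. Neither row's ranges overlapped between these 2 groups. High levels of uc009vex.1 in the former and low levels in the latter were part of its choice, so its difference here carries no support of its own. Shares of the stretch depend on each other, so that of uc009vew.1 is not free of this choice. For both rows culture and tissue overlapped in hippocampal pipette neurons and in cortical TIVA neurons, where uc009vex.1 held 17.1% to 24.2% in culture and 16.0% and 18.8% in tissue.

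A ratio of reads shows the same. It is taken per read of uc009vex.1, whose levels in cultured TIVA and hippocampal tissue TIVA neurons were part of the choice. Per read of uc009vex.1 there were 0.392 to 0.503 reads of uc009vew.1 in cultured hippocampal TIVA neurons, 1.797 to 3.45 in hippocampal tissue TIVA neurons and 1.92 to 2.82 in hippocampal tissue pipette neurons. Cultured cortical neurons had 0.623 to 0.864 by TIVA and 0.278 to 0.675 by pipette, and cortical tissue neurons 0.485 and 1.04. Hippocampal tissue neurons thus stood above the 3 cortical groups and above cultured hippocampal TIVA neurons. They overlapped cultured hippocampal pipette neurons, which had 1.01 to 3.26, and the lowest TIVA neuron overlapped bulk tissue, with 0.755 to 1.88.

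Hippocampal tissue neurons collected by pipette and by TIVA differed in uc009vev.1. It made up 11.1% to 15.1% of the stretch's reads in the pipette neurons, against 1.68% to 4.96% in tissue TIVA neurons. Per read of uc009vex.1 there were 1.26 to 1.92 reads of uc009vev.1 in the pipette neurons and 0.206 to 0.572 in the TIVA neurons. Low levels of both rows in these TIVA neurons were part of the choice, so the share and the ratio carry no support of their own. In the other 6 groups this ratio ran from 0.0435, in a cortical tissue neuron, to 1.52, in a cultured hippocampal pipette neuron.

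**Figure D4:**
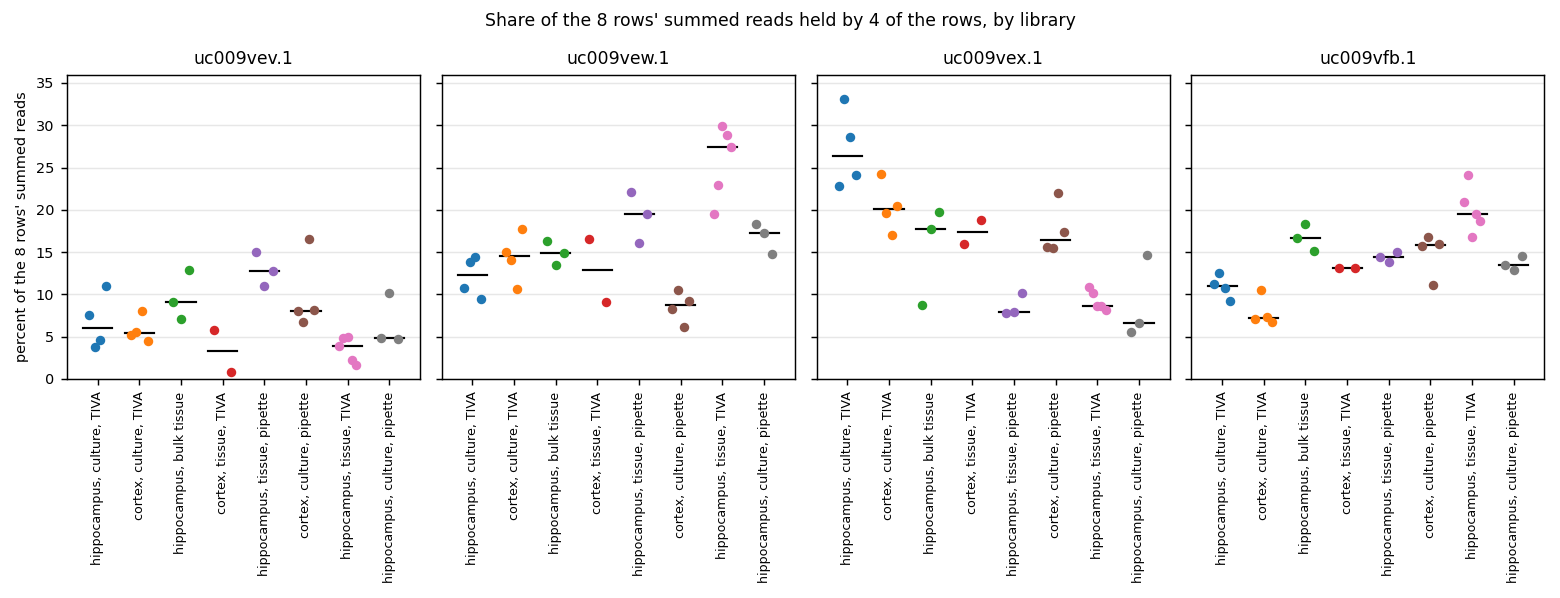
Percent of the summed reads of the 8 rows held by uc009vev.1, uc009vew.1, uc009vex.1 and uc009vfb.1, with a point per library and a bar at each group median. In hippocampal tissue TIVA neurons uc009vew.1 holds 19.5% to 29.9% and uc009vex.1 8.13% to 10.8%, while in cultured hippocampal TIVA neurons uc009vex.1 holds 22.8% to 33.0%.

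The ratio of the 2 rows with the fewest reads was higher in tissue neurons than in cultured neurons and in bulk tissue. Per read of uc009vez.1 there were 0.178 to 0.394 reads of uc009vfa.1 in the 10 tissue neurons and 0.0732 to 0.173 in the 18 cultured and bulk libraries, so these did not overlap, though the nearest values, 0.173 and 0.178, are close. This division was chosen after the values were seen. The share of uc009vez.1 in the stretch was highest in cultured hippocampal pipette neurons, at 0.722% to 1.00%, and lowest in the cortical tissue neurons, at 0.130% and 0.144%.

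Libraries with much of 1 row had much of the others. Over the 28 libraries Pearson's r of log2(CPM + 10) between 2 rows ranged from 0.859 (uc009vev.1 with uc009vfa.1) to 0.983 (uc009vex.1 with uc009vfc.1), with a median of 0.935 over 28 pairs of rows. Taken as deviations from the group means, so that differences between groups play no part, it ranged from 0.640 to 0.966 with a median of 0.840. These values describe the libraries, which share depth, scaling and group, and the rows compete for the same reads.

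For the 2 rows of highest mean CPM, the most similar patterns were sought among the same 10694 features. The features most like uc009vfc.1 were uc009vex.1 (r = 0.983) and uc009vfb.1 (r = 0.982). Those most like uc009vex.1 were uc009vfc.1 and, outside the stretch, uc012hdm.1 (r = 0.981, 28 libraries). That feature averaged 3977 CPM (SD 2008, n = 4) in cultured hippocampal TIVA neurons and 10.2 CPM (SD 7.51, n = 3) in cultured hippocampal pipette neurons. It was at 880.2 to 1712 CPM in bulk tissue and at 3.37 to 102 CPM in hippocampal tissue TIVA neurons. For each of the 8 rows, the other 7 all lay within the first 11 places of likeness. Features outside the stretch lay among them, as only 5 or 6 of the first 7 places were rows of the stretch. For uc009vfa.1 the feature of highest r (0.989) was outside it.

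How concentrated a library looked depended on whether the stretch was counted. With the 8 rows taken out, the 50 most abundant remaining features held 12.5%, 16.8%, 16.9% and 13.3% of the remaining reads in cultured hippocampal TIVA libraries, against 15.5%, 14.3% and 18.3% by pipette. With all features these shares were 25.2% to 66.6% by TIVA and 14.2% to 18.3% by pipette, so the groups overlapped only without the stretch. In cultured cortex the share without it was 13.1% to 16.5% by TIVA and 13.6% to 17.6% by pipette. Without the stretch the cortical tissue neurons were the most concentrated of all libraries, at 26.8% and 31.9%.

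Counts of features at a CPM limit moved in the same way. In cultured hippocampal TIVA neurons a median of 2501 features reached 50 CPM, and 4077.5 did when CPM was taken over the reads outside the stretch, a gain of 416 to 2427 per library. In cultured hippocampal pipette neurons the median was 3870 before and 3874 after. The direction of the TIVA minus pipette difference at this limit was therefore opposite with and without the 8 rows.

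**Figure D5:**
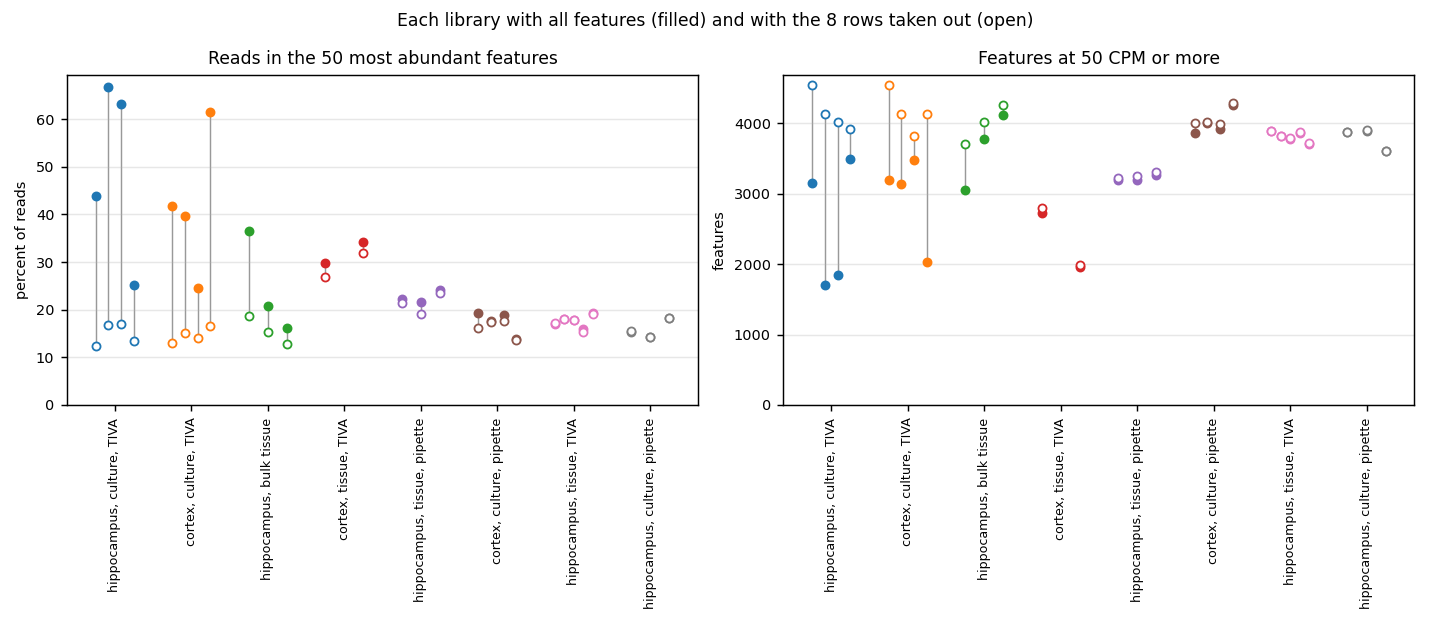
For each library, the percent of reads in the 50 most abundant features (left) and the number of features at 50 CPM or more (right), with all features (filled) and with the 8 rows taken out (open). In the 8 cultured TIVA libraries the left value drops from 24.5% to 66.6% down to 12.5% to 16.9%, while in hippocampal tissue TIVA libraries the median is 17.8% both ways.

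Reads that HTSeq set aside as ambiguous, meaning that they overlap more than 1 feature, were also most frequent where the stretch was abundant. As a percent of assigned reads they came to 10.4% to 15.8% in cultured hippocampal TIVA libraries, 7.95% to 15.5% in cultured cortical TIVA libraries and 6.31% to 14.6% in bulk tissue. Cultured hippocampal pipette neurons had 2.50% to 2.97% and hippocampal tissue TIVA neurons 2.47% to 3.40%. Over the 28 libraries, which share these groups, Spearman's rho between this rate and the share of the stretch was 0.923 (Pearson's r with the log2 share 0.880), and between depth and the share it was −0.167. The part of ambiguous reads in the levels of the 8 rows was not tested. The no-feature share, 19.9% to 38.4% in cultured hippocampal TIVA and 31.5% to 75.3% in cultured hippocampal pipette libraries, overlapped between these groups, and its part in the levels was not tested.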

How the data were processed

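For each library the authors deposited read counts per feature, as whole numbers. CASAVA 1.8.1, HTSeq and the mouse build mm9 are named, per the submitters' processing notes. Aligner, overlap mode, strand setting and filters are not stated, so overlapping, antisense or near-identical features could share or lose reads. The 5 HTSeq summary lines, 3 of them 0 throughout, were left out of library sizes. The no-feature and ambiguous lines are given where they touch a result.

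Rows were found by identifier and their counts divided by the assigned reads of the library. Groups follow the source name, and replicates are numbered in record order. The smallest chi-square per degree of freedom between libraries of a group was 48.6, so none was merged. Differences are of mean log2(CPM + 10), over features with a mean of the 2 group means of 5 CPM or more, and the comparison was tested on simulated counts. All rows of the stretch are named, with the rows just outside it and, for the 2 rows of highest mean CPM, the 2 features of highest Pearson's r. The members, lists and comparisons were chosen with earlier results of these data known. Alternatives were the pseudocount, 5 other scalings (TMM from edgeR 4.0.16, DESeq2 1.42.0 size factors, totals outside the stretch or the top 50, totals with summary lines), summed counts, a lower limit and leaving out each library. Python 3.11.15 and R 4.3.3 were used. The marker lists could not be used without symbols.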

Additional observations from a re-analysis of the deposited data

Results flagged for a closer look

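The TIVA minus pipette difference ran in opposite directions in cultured and in tissue hippocampal neurons for 6 of the 8 rows and for their sum: every cultured TIVA neuron was above every cultured pipette neuron, and every tissue TIVA neuron below every tissue pipette neuron. The gap between both differences, on the log2(CPM + 10) scale, was 11.32 for uc009vev.1, 11.06 for uc009vex.1, 9.20 for uc009vey.1, 4.10 for uc009vfa.1, 8.70 for uc009vfb.1, 9.38 for uc009vfc.1 and 9.55 for the summed rows. This difference was not tested, since each group counts as 1 sample, and the means of collection of the tissue pipette neurons rests on the source name. The levels of uc009vev.1 and uc009vex.1 in some of these groups were part of the choice. The share of all features that run in opposite directions in this way was not counted, so the 6 rows have no background beside them. For uc009vfa.1 the tissue groups were barely apart. The highest TIVA neuron had 7.92 CPM (191 reads) and the lowest pipette neuron 8.04 CPM (63 reads), a narrow gap at low counts. No library stood apart from its group by Dixon's gap ratio in any of 36 sets of 4 or 5 libraries, where chance flags about 1 in 20. These sets are not independent, since the rows go together over the same libraries. Smaller groups were not examined, among them bulk tissue, where the stretch held 23.3% in the first library against 7.48% and 4.85%.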

How the results depend on the processing

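All 8 rows kept the sign of their difference in each of the 11 comparisons under all 5 other scalings and both other pseudocounts. The size followed the scaling in cortex: the summed rows' tissue minus culture difference by TIVA was −2.46, and −1.60 with DESeq2 size factors or −1.46 with no-feature and ambiguous reads in the library size, each with 2 rows called in place of 6. The cortex minus hippocampus difference of tissue TIVA neurons was 2.95, and 4.28 with DESeq2. For tissue TIVA against tissue pipette neurons, 3 rows were called, 5 with DESeq2 and 5 at a limit of 1, and 2 to 5 when a library was left out. For tissue pipette neurons against bulk, 2 rows were called, 1 with TMM, 1 with DESeq2, 1 with a pseudocount of 50 CPM and 5 at a limit of 1, and 1 to 4 when a library was left out. The causes were not tested. Scaling also moved the median over all tested features, in cultured hippocampal TIVA minus pipette from −0.46 to 0.10 outside the stretch. There the summed rows' difference stayed between 6.73 and 8.08 whichever library was left out, and all 8 rows were called each time. Depth limits uc009vfa.1, with 20 reads at the lowest. No paired analysis was possible because the labels give no replicate numbers and no test was run.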
